A study of Homo sapiens with 4 samples.

Results

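The nuclear-encoded subunits of oxidative phosphorylation were examined as a group of genes in prostate cancer (PCa) cells with and without DDX52 knockdown. Members were protein-coding genes whose symbols match the patterns of complex I (NDUFA, NDUFB, NDUFC, NDUFS, NDUFV), complex II (SDHA to SDHD), complex III (UQCR genes and CYC1), cytochrome c (CYCS), complex IV (COX4 to COX8) and complex V (ATP5), and 91 of the 60671 listed genes met the rule. The rule itself uses symbols and no measured value, although the group was picked with earlier results of these data known. Complex I contributed 37 genes, complex II 4, complex III 10, complex IV 19, complex V 20 and cytochrome c 1. NDUFA4 and NDUFA4L2 carry complex I names but were placed with complex IV, where the NDUFA4 protein belongs.

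RNA was sequenced from 22RV1 and PC3, which are cell lines derived from human prostate carcinoma. Each line carried lentiviral shRNA, either against DDX52, which encodes a DEAD-box RNA helicase (shDDX52), or a control sequence (shCON), and stable cells were kept under puromycin. A single shRNA sequence was used against DDX52. All 4 conditions were sequenced once. Differences below therefore come without any replicate, and p-values are not given. The authors deposited TPM, which is the share of transcripts in a library corrected for transcript length. The depth behind each value is unknown, since TPM does not keep it, and in bulk RNA fewer transcripts per cell cannot be told apart from other shifts in cell content.

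The shRNA target DDX52 went from 4.88 to 1.2 TPM (24.6% of the control) in 22RV1 cells, and in PC3 cells from 9.2 to 2.07 TPM (22.5%). Of the markers of the lines, CAV1, which marks PC3, had 0.45 and 0.39 TPM in 22RV1 and 162 and 130.2 TPM in PC3. The libraries differed in composition. Nuclear rRNA genes held between 0.0872% and 3.13% of the TPM, with the highest share in PC3 shDDX52, and its part in the differences below was not tested beyond the rescaling over nuclear protein-coding genes.

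Oxidative phosphorylation makes most of the ATP of a respiring cell. Complexes I and II pass electrons from NADH and succinate to ubiquinone, complex III passes them to cytochrome c, complex IV passes them to oxygen, and complex V, the ATP synthase, uses the proton gradient built by complexes I, III and IV. Complexes I, III, IV and V combine subunits encoded in the nucleus with subunits encoded in mitochondrial DNA, whereas complex II is encoded in the nucleus throughout.

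These mRNAs were abundant. The median member stood at 274 TPM with shCON and 253 TPM with shDDX52 in 22RV1 cells, and at 242 and 206 TPM in PC3 cells. Between 65 and 70 members reached 100 TPM in a library. Together the members held 4.13% of all TPM in the 22RV1 control and 4.15% after knockdown, but 3.27% and 2.86% in PC3. The highest means over the 4 libraries belonged to ATP5MF, a membrane subunit of the ATP synthase, to COX8A and COX6A1, which are small structural subunits of complex IV, to ATP5F1B, the catalytic beta subunit, and to COX4I1. ATP5MF was at 3609.6 and 3529.7 TPM in 22RV1 and at 1555 and 1393 TPM in PC3, shCON first. COX8A was at 2003 and 2340 TPM in 22RV1 and at 1680.3 and 1522 in PC3, again with shCON first. The 10 most abundant members held between 33.3% and 40.4% of the members' TPM.

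Levels in the control cells of the lines were set side by side, although the tables were made separately for each line and no test was possible. Spearman's rho between the control TPM of 22RV1 and PC3 was 0.89 over the 82 members with at least 1 TPM in both lines, as a description across genes. Of 84 members with at least 1 TPM in either control library, 14 were at least 2-fold higher in 22RV1 and 5 were at least 2-fold higher in PC3. Complex V gave several of those higher in 22RV1, among them ATP5ME (1701 TPM against 479), ATP5MC2 (1120.2 against 448) and ATP5IF1, the inhibitor of ATP hydrolysis by the enzyme (773 against 313). COX7B (50.2 TPM in 22RV1, 115 in PC3) and COX7A2L (35.0 and 81.2), a COX7A-related protein that joins complex III and complex IV in supercomplexes, were higher in PC3.

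Isoforms of complex IV that other tissues use were nearly silent. COX4I2, COX6A2, COX7A1 and COX8C were listed at 0 in all 4 libraries, and COX6B2 stayed between 0.45 and 0.98 TPM. Of the others, COX7B2, a paralogue of COX7B known from testis, was listed at 0 in both 22RV1 libraries and was at 10.1 and 11.7 TPM in PC3 shCON and shDDX52. NDUFA4L2, a paralogue of NDUFA4 known as a hypoxia target, showed the reverse pattern, with 8.31 and 8.51 TPM in 22RV1 and 0.67 and 0.66 in PC3. The plot of levels by complex shows how narrow the shifts within a line were next to the range between genes.

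**Figure D1:**
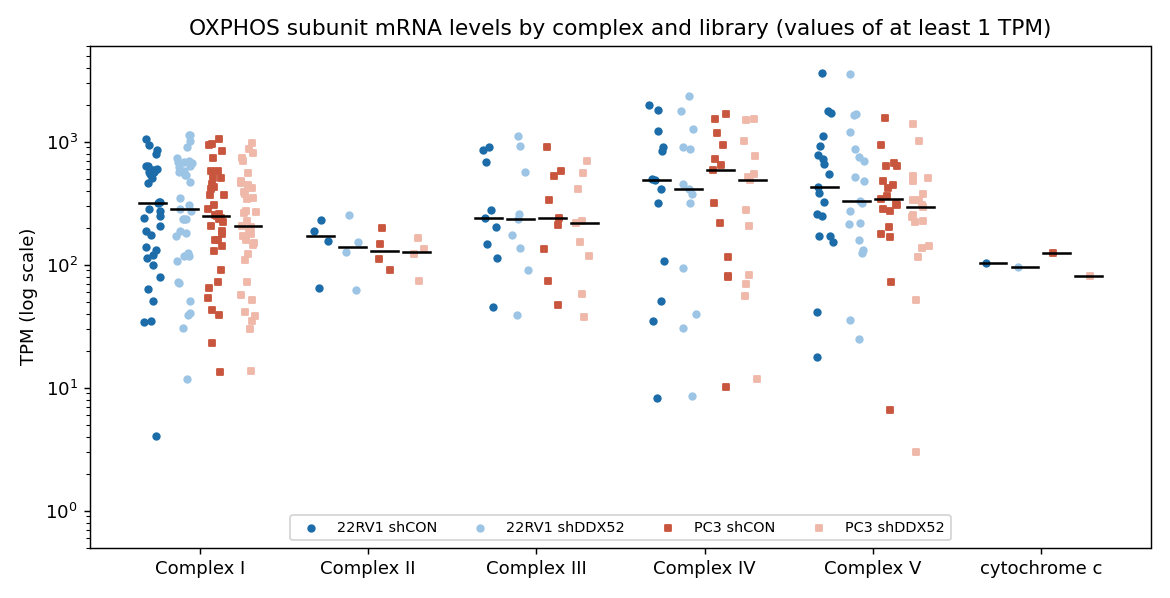
TPM (log scale) of each nuclear-encoded subunit gene by complex in the 4 libraries, with values under 1 TPM left out; black bars are medians of the values shown. Complexes I and IV hold points under 10 TPM and points over 1000 TPM in 22RV1, and PC3 shDDX52 lies below PC3 shCON in the median of each complex and in cytochrome c.

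To ask whether DDX52 knockdown moved the group, log2((TPM shDDX52 + 1) / (TPM shCON + 1)), here the log2 ratio, was computed within each line wherever a gene reached 1 TPM with shCON or shDDX52. In PC3 cells, 83 members passed this filter, and 74 of them were lower with shDDX52 and 9 were higher. A log2 ratio below 0 was held by 53.5% of all 14262 genes. The median member had a log2 ratio of −0.24, with quartiles of −0.37 and −0.11, against −0.036 for all genes. In 22RV1 cells, 53 of 83 members were lower and 30 were higher, where 58.8% of all 14438 genes were lower. The 22RV1 median was −0.091 against −0.076 for all genes, and it became 0.033 after centring on genes alike in transcript length and GC content.

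A log2 ratio of at least 0.32 in size was used as the call. Of the members, the read-through gene NDUFC2-KCTD14 alone passed a log2 ratio of 1 in size, in both lines, but with a pseudocount of 5 TPM it reached 0.88 in 22RV1 and 0.93 in PC3. In PC3, 29 of the 83 members fell past the call, which is 34.9%, against 22.5% of all genes and 21.0% of protein-coding genes of at least 10 TPM. Rises of this size were seen for 2 members in PC3, or 2.41%, where 19.7% of all genes and 13.6% of the more abundant protein-coding genes rose. In 22RV1, 7 members fell, or 8.43%, where 22.6% of all genes and 17.1% of protein-coding genes of at least 10 TPM fell. There 3 members rose, or 3.61%, against 12.7% and 8.48%. The members' shares were below these backgrounds in 22RV1, while in PC3 the share that fell was above and the share that rose was below, and no test of these gaps was possible.

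The sums followed the abundant members. The members' summed TPM was 40812 with shCON and 41121 with shDDX52 in 22RV1. Members that were lower lost 1901 TPM together, and members that were higher gained 2209. In PC3 the sum was 32405 with shCON and 28112 with shDDX52, with 4490.3 TPM lost and 198 gained. The sum over all nuclear protein-coding genes also fell in PC3, from 875302 to 800018 TPM. Of this sum the members held 3.70% with shCON and 3.51% with shDDX52. The log2 ratio of their summed TPM in PC3 was −0.205 as deposited and −0.075 over nuclear protein-coding genes. In 22RV1 the shares were 4.86% and 4.96%.

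**Figure D2:**
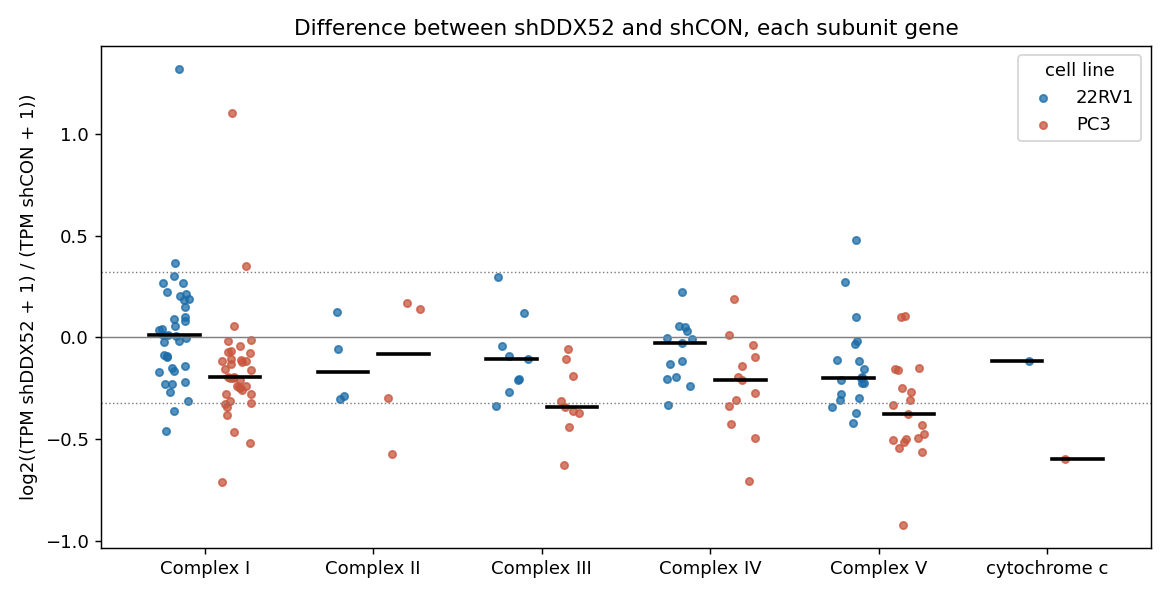
Log2 ratio of shDDX52 over shCON for each subunit gene of at least 1 TPM, by complex and cell line; black bars are medians and dotted lines mark the call of 0.32 in size. The PC3 points of complexes III and V lie mostly below 0, with medians of −0.34 and −0.38, and the 22RV1 points of complex I lie on both sides of 0.

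Between the lines, 49 of the 82 members measured in both were lower in both, 4 were higher in both, 25 were higher in 22RV1 and lower in PC3, and 4 were the other way round. The lines have separate control libraries. Spearman's rho between their log2 ratios was 0.30 over these members and 0.012 over the 12175 genes measured in both, each a description across genes. Called lower in both lines were UQCRC2, COX7B, ATP5F1C and ATP5MK. These are 4.88% of the members, and 5.22% of all genes met the same criterion, so the share was near that of any genes. NDUFC2-KCTD14, at 4.07 and 11.7 TPM in 22RV1 and 13.4 and 30.1 TPM in PC3, was the 1 member called higher in both (1.22%, against 2.45% of all genes), and ATP5MF-PTCD1 alone was called in opposite directions (1.22%, against 7.24%). Both are read-through genes that overlap a subunit gene, NDUFC2 or ATP5MF, so their values depend on how shared reads were split, which was not tested.

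Complex I is the largest complex. In 22RV1 its median log2 ratio was 0.012, with 17 of 37 genes lower and 20 higher, and in PC3 the median was −0.19 with 34 lower and 3 higher. The 7 core genes of nuclear origin, whose proteins include those that bind the flavin and iron-sulphur clusters, had a 22RV1 median of 0.034 and a PC3 median of −0.071. The 11 NDUFB genes, whose proteins sit in the distal membrane arm, had a 22RV1 median of 0.013 and a PC3 median of −0.16.

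Of complex I genes with at least 10 TPM, NDUFA9 and NDUFS1 were furthest down in 22RV1. NDUFA9, an accessory subunit near the ubiquinone site, fell in 22RV1 from 100.01 to 72.5 TPM, and stood at 64.5 and 51.8 TPM in PC3. Its log2 ratios were −0.46 and −0.31, the latter just short of the call. NDUFS1, the largest iron-sulphur subunit, fell from 50.8 to 39.3 TPM in 22RV1 and was at 38.9 and 38.4 TPM in PC3. In PC3 the largest falls were those of NDUFA5, from 23.1 to 13.8 TPM, and NDUFB1, from 239 to 167 TPM. Both were higher in 22RV1 with shDDX52, where NDUFA5 was at 34.6 and 40.3 TPM and NDUFB1 at 285 and 303 TPM. NDUFB7, a subunit of the membrane arm, rose in 22RV1 from 788 to 1014 TPM and was at 949 and 876 TPM in PC3. Its 22RV1 log2 ratio of 0.36 became 0.22 after centring on length and GC content, which is short of the call. Among the most abundant members, NDUFA13 was at 940.3 and 1131 TPM in 22RV1 and at 840.1 and 732 TPM in PC3, and NDUFS6 was at 1052 and 1127 TPM and at 731 and 693 TPM.

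Complex II, succinate dehydrogenase, also works in the tricarboxylic acid cycle. Its 4 genes split in both lines. SDHB, the iron-sulphur subunit, was at 186 and 153 TPM in 22RV1 and fell from 198 to 133 TPM in PC3, with log2 ratios of −0.29 and −0.57. SDHA, the flavoprotein that oxidises succinate, was higher with shDDX52 in both lines, at 232 and 253 TPM in 22RV1 and at 110 and 122 TPM in PC3. SDHC and SDHD anchor the enzyme in the membrane. SDHC was at 157 and 127 TPM in 22RV1 and at 147 and 166 TPM in PC3, so its directions differed, with log2 ratios of −0.30 and 0.17. SDHD was at 64.1 and 61.7 TPM in 22RV1 and at 90.5 and 73.5 TPM in PC3. The PC3 median of −0.079 turned to 0.049 when TPM was recomputed over nuclear protein-coding genes. In PC3, SDHB stayed past the call under each of the other scalings tried, namely over nuclear protein-coding genes, over all genes and on length and GC content.

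In complex III, 9 of the 10 genes passed the filter in each line, the exception being UQCRHL, a copy of the hinge protein gene whose highest value was 0.37 TPM. All 9 were lower in PC3, with a median of −0.34 and 5 past the call (55.6%, against 22.5% of all genes). In 22RV1, 7 were lower and 2 higher, with a median of −0.10, and 1 was called lower (11.1%, against 22.6%). UQCRB, a small subunit at the ubiquinone-binding region, fell from 335 to 217 TPM in PC3 and was at 201 and 175 TPM in 22RV1. UQCRQ, another small subunit, fell from 209 to 154 TPM in PC3. UQCRC2, a core protein without redox centre, fell in 22RV1 from 114 to 90.01 TPM, and fell in PC3 from 73.9 to 57.3 TPM. The electron-carrying subunit CYC1, cytochrome c1, moved apart in the lines: it was at 903 and 1108 TPM in 22RV1, a log2 ratio of 0.29, and fell from 903 to 698 TPM in PC3, a log2 ratio of −0.37. UQCRC1 was at 854 and 928 TPM in 22RV1 and at 579 and 556 TPM in PC3. UQCRH, the hinge protein gene, was at 679 and 564 TPM in 22RV1 and fell from 522 to 412 TPM in PC3. UQCR10 was at 241 and 234 TPM in 22RV1 and at 242 and 225 TPM in PC3.

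CYCS, the soluble carrier between complexes III and IV that also takes part in apoptosis, was at 103 and 95.3 TPM in 22RV1 and fell from 124 to 81.5 TPM in PC3. Its 22RV1 log2 ratio of −0.11 turned to 0.043 after centring on length and GC content. Its PC3 log2 ratio of −0.60 was the fourth lowest among the members with at least 10 TPM in that line.

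Complex IV, cytochrome c oxidase, had 13 genes past the filter in each line. The median was −0.026 in 22RV1, where 9 were lower and 4 higher, and the sign turned after centring on all genes (0.050) or on length and GC content (0.038). In PC3 it was −0.21, with 11 lower and 2 higher. COX7B fell in both lines, in 22RV1 from 50.2 to 39.8 TPM and in PC3 from 115 to 70.03 TPM, with log2 ratios of −0.33 and −0.70. NDUFA4 was at 108 and 93.4 TPM in 22RV1 and fell from 79.3 to 56.1 TPM in PC3. COX6B1, which faces cytochrome c, was at 912 and 906 TPM in 22RV1 and fell from 727 to 541 TPM in PC3. COX5A was at 487 and 412 TPM in 22RV1 and at 319 and 279 TPM in PC3. COX8A, by contrast, had the highest log2 ratio of the complex in 22RV1, 0.22, and a log2 ratio of −0.14 in PC3. COX4I1 and COX6A1 differed little, with log2 ratios of 0.057 and −0.026 in 22RV1 and −0.21 and −0.036 in PC3.

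Complex V was mostly lower in both lines. Of 19 genes past the filter, 16 were lower in 22RV1 with a median of −0.20, where 58.8% of all genes were lower. There 3 were called lower (15.8%, against 22.6% of all genes). In PC3, 17 were lower with a median of −0.38, where 53.5% of all genes were lower. There 11 were called lower (57.9%, against 22.5% of all genes). The F1 part of the enzyme had 4 of 5 genes lower in each line. ATP5F1C, the gamma subunit of the rotor, fell in 22RV1 from 171 to 132 TPM and in PC3 from 176 to 136 TPM. ATP5F1A, the alpha subunit, fell from 657 to 518 TPM in 22RV1 and was at 281 and 253 TPM in PC3. ATP5F1B was at 1787 and 1652 TPM in 22RV1 and at 945 and 1017 TPM in PC3. ATP5F1D, the delta subunit, went in opposite directions, at 719.8 and 870.3 TPM in 22RV1 and 303 and 225 TPM in PC3, with log2 ratios of 0.27 and −0.43.

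The peripheral stalk, which holds the head still, was lower in all of its 4 genes in both lines. Its 22RV1 median log2 ratio was −0.21, with −0.49 in PC3, and both remained below 0 after centring on length and GC content, at −0.026 and −0.29. ATP5PB was at 153 and 124 TPM in 22RV1 and fell from 168 to 115 TPM in PC3, ATP5PF was at 249.7 and 218 TPM and fell from 418 to 296, and ATP5PO was at 383 and 328 TPM and fell from 666 to 479. The 5 nuclear-encoded membrane subunits outside the c ring were also lower throughout, with medians of −0.12 and −0.50. After the same centring their 22RV1 median was 0.033 with 2 lower and 3 higher, and their PC3 median was −0.28. ATP5MK, which takes part in joining the enzyme into dimers, had the lowest log2 ratio of them in each line, falling in 22RV1 from 426 to 318 TPM and in PC3 from 363 to 245 TPM. ATP5ME was unequal between the lines, at 1701 and 1682 TPM in 22RV1 and falling from 479 to 338 TPM in PC3. ATP5IF1 was at 773 and 694 TPM in 22RV1 and at 313 and 335 TPM in PC3.

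**Figure D3:**
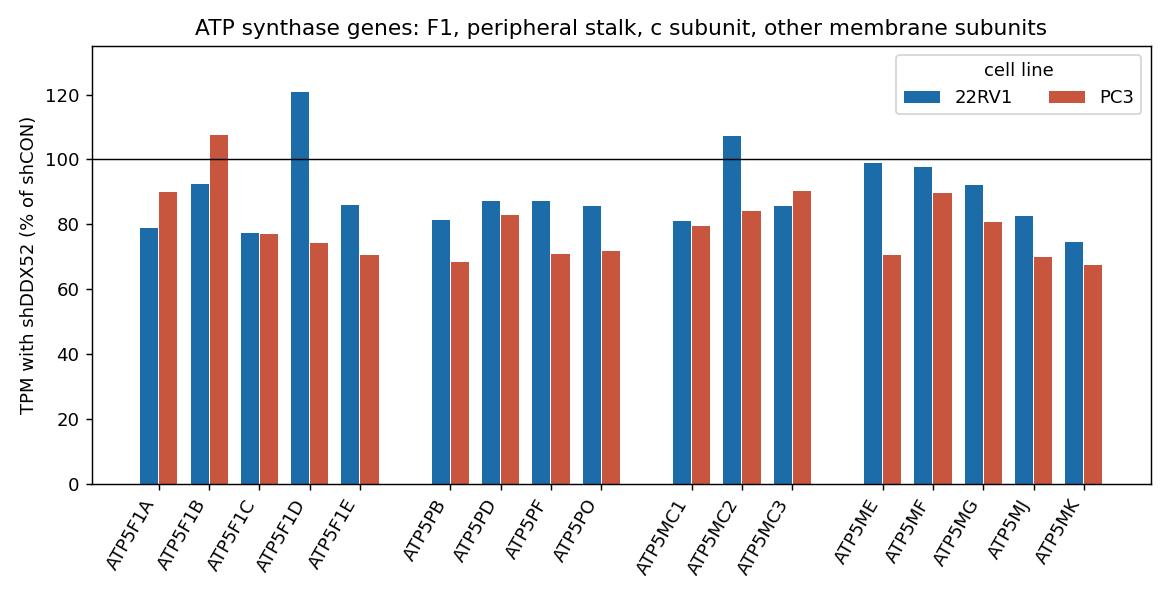
TPM with shDDX52 as a percentage of shCON for nuclear-encoded ATP synthase genes, with a line at 100%. Groups from left to right are the F1 part, peripheral stalk, c subunit and other membrane subunits. All peripheral stalk bars lie below 100% in both lines, while ATP5F1D and ATP5MC2 in 22RV1 and ATP5F1B in PC3 lie above it.

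The proton-carrying c ring is built from a single mature protein that 3 genes encode. In the principal coding transcripts of GENCODE 29, the last 77 residues were identical among ATP5MC1, ATP5MC2 and ATP5MC3. Before this stretch lie 59, 64 and 65 residues, and where the mature protein begins was not examined. The coding bases of this shared stretch are shown because they encode the same residues with different bases. Capitals mark the 57 of 231 positions at which the 3 sequences are not all alike, and the stop codon is left out.
ATP5MC1: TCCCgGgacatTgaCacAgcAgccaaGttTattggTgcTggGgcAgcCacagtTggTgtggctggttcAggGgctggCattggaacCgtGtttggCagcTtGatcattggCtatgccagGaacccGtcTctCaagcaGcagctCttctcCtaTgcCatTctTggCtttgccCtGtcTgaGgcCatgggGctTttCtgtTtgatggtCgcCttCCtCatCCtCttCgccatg
ATP5MC2: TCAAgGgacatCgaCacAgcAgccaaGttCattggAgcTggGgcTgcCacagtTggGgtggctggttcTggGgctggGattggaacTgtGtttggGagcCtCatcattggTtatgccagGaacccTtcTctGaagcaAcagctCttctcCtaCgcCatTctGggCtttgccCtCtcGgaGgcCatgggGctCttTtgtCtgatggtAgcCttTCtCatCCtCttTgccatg
ATP5MC3: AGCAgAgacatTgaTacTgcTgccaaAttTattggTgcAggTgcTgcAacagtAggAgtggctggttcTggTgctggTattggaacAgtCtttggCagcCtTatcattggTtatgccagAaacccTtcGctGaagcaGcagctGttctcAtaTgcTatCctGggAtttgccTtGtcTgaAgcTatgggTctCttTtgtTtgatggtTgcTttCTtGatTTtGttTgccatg
Over this stretch ATP5MC1 and ATP5MC2 were 88.3% identical, and ATP5MC3 was 80.1% identical to each of them. ATP5MC1 was at 929 and 751 TPM in 22RV1 and fell from 633 to 502 TPM in PC3. ATP5MC2 was at 1120.2 and 1202 TPM in 22RV1 and at 448 and 377 TPM in PC3. ATP5MC3 was at 321 and 274 TPM in 22RV1 and at 339 and 306 TPM in PC3. Summed over the 3 genes, the c subunit mRNA went from 2370 to 2228 TPM in 22RV1 cells, and was 1420 and 1184 in PC3, so the sum was lower with shDDX52 in both lines.

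Members that were higher and members that were lower in 22RV1 differed in base composition. Over the 83 members, Spearman's rho between the log2 ratio and the GC content of the transcripts was 0.71, where it was 0.36 over 11867 other nuclear protein-coding genes, as a description across genes of 1 pair of libraries. Of the 10 members with more than 60% GC, all were higher in 22RV1, with a median of 0.27, and 2335 other protein-coding genes in that range had a median of 0.13. Of the 21 members with up to 45% GC, 19 were lower with a median of −0.20, against −0.17 for 3565 other genes. In PC3, rho was 0.38 over the members and −0.012 over the other genes.

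Coding sequences of genes with high and with low GC content were chosen after their values were seen, and they are not the extremes of the range on the low side. The first 30 codons are shown for NDUFB7 and ATP5F1D, which were higher in 22RV1 with shDDX52, and for ATP5MK and COX7B, which fell there, with a capital wherever the third base of a codon is G or C.
NDUFB7: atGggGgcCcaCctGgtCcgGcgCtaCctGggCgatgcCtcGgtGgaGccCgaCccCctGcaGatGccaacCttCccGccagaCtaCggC
ATP5F1D: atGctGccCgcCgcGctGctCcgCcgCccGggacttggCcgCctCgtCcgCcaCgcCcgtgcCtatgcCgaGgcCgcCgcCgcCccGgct
ATP5MK: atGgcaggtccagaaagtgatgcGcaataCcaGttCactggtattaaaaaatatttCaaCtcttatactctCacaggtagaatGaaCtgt
COX7B: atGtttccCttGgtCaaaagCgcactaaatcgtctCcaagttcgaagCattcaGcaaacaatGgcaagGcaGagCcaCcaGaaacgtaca
Over the whole coding sequence, the third base was G or C in 91.3% of codons in NDUFB7 and 86.4% in ATP5F1D, but in 33.9% in ATP5MK and 37.0% in COX7B. Other genes need not follow, as ATP5MC1 (62.0%) and ATP5MC2 (63.4%) had 22RV1 log2 ratios of −0.31 and 0.10. NDUFA5, whose transcripts had the lowest GC content of the members (34.4%), had a 22RV1 log2 ratio of 0.21. In GENCODE 29 on GRCh38, NDUFB7 lies on chromosome 19, ATP5F1D on chromosome 19, ATP5MK on chromosome 10 and COX7B on the X chromosome. Log2 ratios of these genes in 22RV1 were 0.36, 0.27, −0.42 and −0.33 in the order of the sequences, and in PC3 they were −0.11, −0.43, −0.56 and −0.70.

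**Figure D4:**
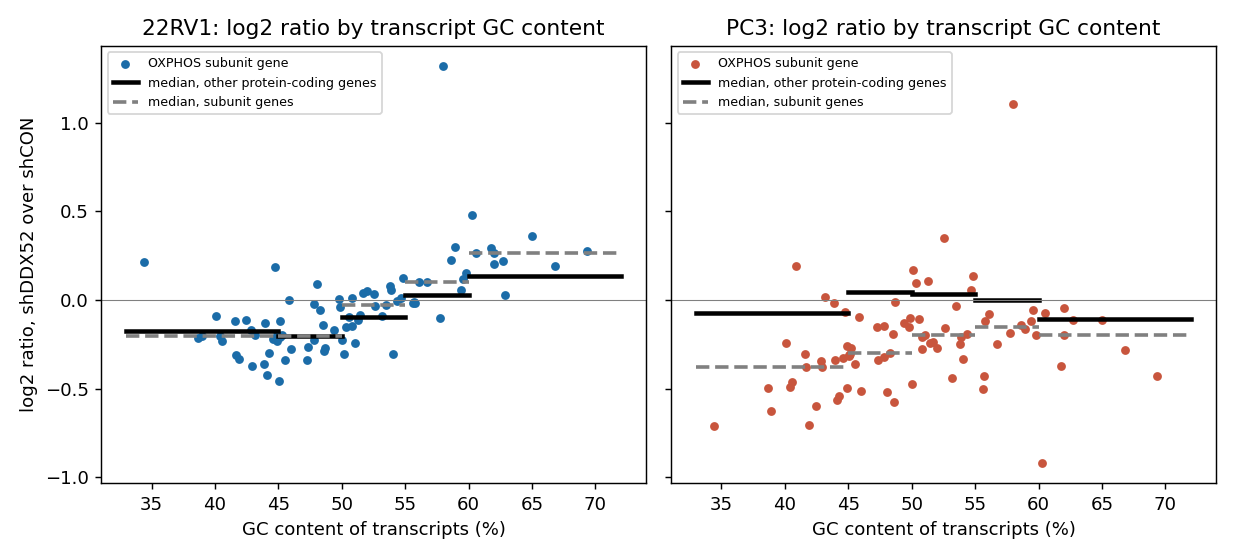
Log2 ratio of each subunit gene of at least 1 TPM against the GC content of its transcripts (%), with black bars for the median of other nuclear protein-coding genes in the same GC range and dashed bars for the median of the subunit genes. In 22RV1 the subunit medians climb from −0.20 up to 45% GC to 0.27 above 60% GC, and in PC3 they lie below the black bars in every range.

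Transcript length moved with the PC3 values of other genes, where Spearman's rho with the log2 ratio was 0.26, and rho was −0.079 over the members, each a description across genes. Members have short transcripts, with a median of 750.0 bases against 2477 for the other nuclear protein-coding genes measured in PC3. Other genes with transcripts of up to 600 bases had a median log2 ratio of −0.16 in PC3, and the 24 members in that range had −0.18. Between 600 and 1000 bases, other genes had −0.18 and the 33 members −0.26. Between 1000 and 2000 bases the medians were −0.12 and −0.30 (16 members), and above 2000 bases they were 0.040 and −0.22 (10 members). Control TPM moved with the PC3 values of other genes about as much, with a rho of −0.25, and rho was 0.16 over the members. In 22RV1, rho with control TPM was 0.0014 over other genes and 0.36 over the members. The part of this level in the differences was not tested.

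When each log2 ratio was centred on the median of the 200 protein-coding non-members nearest in length and GC content, the PC3 median of the members became −0.065, with 61 lower and 22 higher. By complex it became −0.029 for complex I, −0.022 for complex II, −0.22 for complex III, −0.062 for complex IV and −0.19 for complex V, and CYCS kept −0.37. Of the 29 members called lower in PC3, 12 stayed past the call: ATP5ME, ATP5MF-PTCD1, ATP5MK, ATP5PB, ATP5PO, COX7B, CYCS, NDUFA4, NDUFA5, NDUFB1, SDHB and UQCRB. NDUFA9, NDUFV3 and UQCRFS1 were newly called lower, which made 15, and 3 members were called higher. In 22RV1 the same centring gave medians of 0.077 for complex I, −0.032 for complex II and −0.013 for complex III. Complex IV had 0.038 and complex V −0.030. In that line 0 members were called lower and 4 higher, among them NDUFA5 and NDUFB4, which were not called before. TPM recomputed over nuclear protein-coding genes raised the PC3 log2 ratios of nuclear genes, by 0.13 before the pseudocount. This left the members at −0.11, with 16 called lower, while the median of all protein-coding genes was 0.087. The share of all genes past the call was not computed with the centring or this rescaling, so these counts have no background beside them.

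The mitochondrial genome encodes 13 further subunits of complexes I, III, IV and V. In 22RV1 all 13 were higher with shDDX52, with a median log2 ratio of 0.43, and 8 were past the call (61.5%, against 12.7% of all genes). In PC3, 10 were higher and 3 lower, with a median of 0.16. There 5 were called higher (38.5%, against 19.7% of all genes) and 1 lower (7.69%, against 22.5%). Together the 13 subunits held 9.44% of all TPM in the 22RV1 control and 12.5% after knockdown, and 7.68% and 9.76% in PC3. The ratio of their summed TPM to that of the nuclear-encoded members was 2.29 with shCON and 3.02 with shDDX52 in 22RV1, and 2.35 and 3.42 in PC3.

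Values were uneven across the mitochondrial genes. MT-CO3 rose from 7936 to 13513 TPM in 22RV1 and fell from 6691 to 4579.9 TPM in PC3. MT-ND4L rose from 3637 to 11145 TPM in PC3, a log2 ratio of 1.62, and was at 7831 and 9619 TPM in 22RV1. MT-ND4, which is carried on the same transcript as MT-ND4L and overlaps it, rose from 4255 to 5407 TPM in PC3. MT-CO1, the catalytic subunit of complex IV, rose in both lines, in 22RV1 from 5619.6 to 8162 TPM and in PC3 from 9053 to 11987 TPM. MT-CYB, the only mitochondrially encoded subunit of complex III, was at 2709 and 3111 TPM in 22RV1 and at 1896 and 1943 TPM in PC3. MT-ATP8 and MT-ATP6 also overlap, and MT-ATP8 was at 31225 and 39118 TPM in 22RV1 and rose from 12885 to 20814 TPM in PC3, against 7959 and 9823 TPM and 4879.5 and 4982 TPM for MT-ATP6. Values of overlapping genes depend on how shared reads were split.

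**Figure D5:**
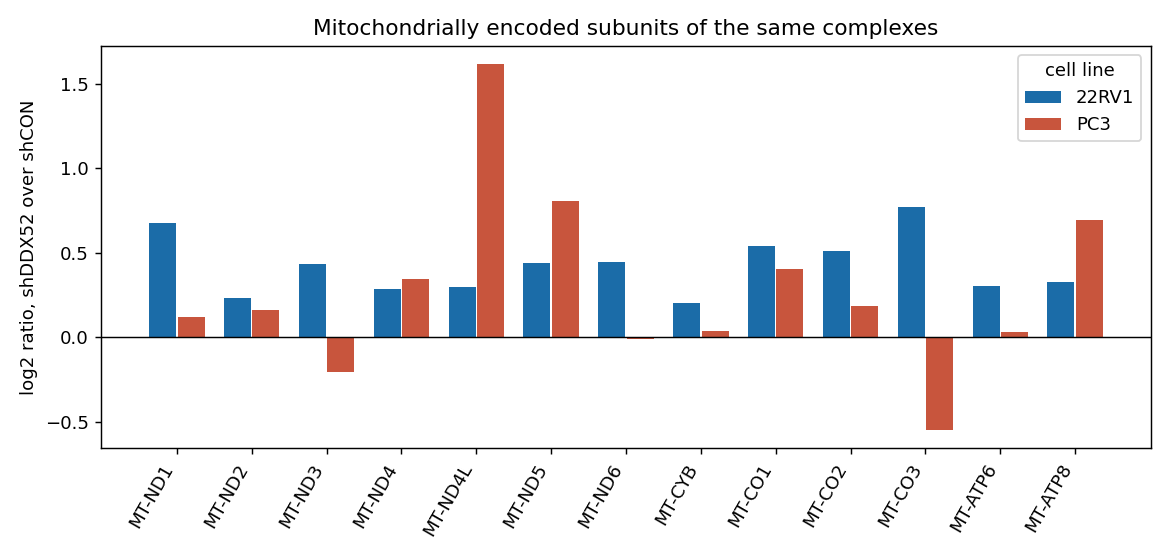
Log2 ratio of shDDX52 over shCON for the 13 mitochondrially encoded subunits in 22RV1 and PC3. All 22RV1 bars lie above 0, and in PC3 MT-ND4L stands highest at 1.62 while MT-CO3 lies at −0.55.

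Genes that build the complexes were less abundant than the subunits, with a control median of 31.5 TPM in 22RV1 and 36.5 TPM in PC3 over 53 assembly factors. In 22RV1, 35 of them were lower and 18 higher, with a median of −0.045. Past the call, 10 were lower (18.9%, against 22.6% of all genes) and 1 was higher (1.89%, against 12.7%). In PC3, 42 were lower and 11 higher, with a median of −0.18. There 16 were called lower (30.2%, against 22.5%) and 1 higher (1.89%, against 19.7%). NDUFAF4, an assembly factor of complex I, fell from 19.4 to 6.78 TPM in PC3, a log2 ratio of −1.39, and was at 16.5 and 19.2 TPM in 22RV1. NDUFAF8 fell from 119 to 65.1 TPM in PC3 and was at 57.8 and 61.0 TPM in 22RV1. LYRM7, which handles the Rieske protein of complex III, fell in PC3 from 4.53 to 1.15 TPM and in 22RV1 from 4.8 to 3.56 TPM. COX20, which helps to mature MT-CO2, fell from 41.8 to 26.9 TPM in PC3 and was at 40.4 and 39.2 TPM in 22RV1.

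Different assembly genes moved furthest in 22RV1. NDUFAF5 fell from 15.4 to 8.22 TPM and NDUFAF6 from 17.9 to 11.1 TPM there, while PC3 held 17.01 and 16.04 TPM of NDUFAF5 and 26.3 and 26.9 TPM of NDUFAF6. TIMMDC1, which is needed for the membrane arm of complex I, fell from 114 to 76.4 TPM in 22RV1, a log2 ratio of −0.57, and was at 139 and 115 TPM in PC3. COX11, a copper chaperone of complex IV, rose from 12.97 to 20.5 TPM in 22RV1 and was at 27.1 and 23.9 TPM in PC3.

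Of 11 transcriptional regulators of respiratory genes, 10 passed the filter in each line. Their medians were −0.082 in 22RV1 and −0.094 in PC3. YY1 fell from 31.7 to 20.2 TPM in 22RV1, a log2 ratio of −0.62, and was at 23.6 and 26.7 TPM in PC3. PPARGC1A, the coactivator PGC-1alpha, stayed below 1 TPM in 22RV1 and was listed at 0 in PC3. Of the 4 carriers that exchange ADP, ATP and phosphate, 3 were lower and 1 higher in 22RV1, and 1 was lower and 3 higher in PC3. SLC25A3, the phosphate carrier, was at 1328 and 1076 TPM in 22RV1 and rose from 855 to 1154 TPM in PC3, and SLC25A6, an ADP/ATP carrier, was at 694 and 863 TPM in 22RV1 and at 407 and 437 TPM in PC3.

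The mitochondrial ribosomal proteins, nuclear-encoded genes needed to translate the 13 mitochondrial subunits, had a 22RV1 median of −0.13 and a PC3 median of −0.29 over 77 genes. Of them 33 were called lower in PC3 (42.9%, against 22.5% of all genes) and 12 in 22RV1 (15.6%, against 22.6%).

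Promoters were inspected for 71 members that had a RefSeq window on GRCh38.p14, from 250 bases before to 50 bases after a start site. Motifs were searched as exact letters on both strands. CCGGAAG, the core bound by ETS factors such as GABP, was in the windows of 21 members (29.6%) and of 16.5% of 15843 protein-coding genes. AAGATGG, the core of YY1 sites, was in 18 members (25.4%) against 7.9%, and the palindromic site of the factor NRF1, printed in capitals in the ATP5F1C sequence, was in 4 members (5.63%) against 1.99%. CACGTG, the E-box bound by c-Myc and other factors, was in 7 members (9.86%) against 10.9%. The ETS and YY1 cores can overlap by the letters AAG, and a match is a description of letters and not of binding.

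The stretch before the start site is shown for 4 of the members past the call in at least 1 line that hold a match there. Others that meet this, among them UQCRH, UQCRQ and ATP5PB, are not shown. The motif is in capitals, and each stretch is written 5′ to 3′ on the strand of the gene. ATP5F1C and ATP5MK fell in both lines, SDHB fell in PC3, and NDUFB7 rose in 22RV1.
ATP5F1C, chr10:7788115-7788176, plus strand: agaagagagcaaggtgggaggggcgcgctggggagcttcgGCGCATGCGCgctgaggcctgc
ATP5MK, chr10:103396476-103396678, minus strand: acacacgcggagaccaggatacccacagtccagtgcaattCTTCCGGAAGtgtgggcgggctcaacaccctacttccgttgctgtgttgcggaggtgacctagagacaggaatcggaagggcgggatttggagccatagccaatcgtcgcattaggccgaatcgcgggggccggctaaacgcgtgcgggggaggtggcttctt
SDHB, chr1:17054033-17054200, minus strand: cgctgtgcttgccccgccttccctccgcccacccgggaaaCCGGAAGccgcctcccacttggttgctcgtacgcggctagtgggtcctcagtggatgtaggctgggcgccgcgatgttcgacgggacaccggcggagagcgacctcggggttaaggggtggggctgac
NDUFB7, chr19:14572067-14572130, minus strand: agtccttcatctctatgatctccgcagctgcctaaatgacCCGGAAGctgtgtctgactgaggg
Genes with the same motif moved in different directions, as ATP5MK and NDUFB7 did in 22RV1. The capital run in ATP5MK holds the ETS core on both strands, and a further match spans its start site. The median log2 ratio of members with the ETS core was −0.055 in 22RV1 and −0.27 in PC3 (21 genes), and members without it had −0.091 (46 genes) and −0.24 (47 genes). Members with the YY1 core had −0.12 in 22RV1 and −0.32 in PC3 (18 genes), against −0.055 (49 genes) and −0.20 (50 genes) without it. Whether these medians differ beyond the spread between libraries was not tested.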

How the data were processed

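Total RNA was prepared with Trizol and made into TruSeq libraries, 1 for each of the 4 conditions. The authors had the reads mapped on an online platform, and the submitters' processing notes list CASAVA, HISAT2 and the build hg19. The program behind the deposited TPM and its annotation are not given in the sources used here. Members and lists were chosen with earlier results of these data known. Of 60671 identifiers, 42020 had a symbol and 58453 a type in GENCODE 29, whose GRCh38 positions and transcript lengths are not those of the deposited values. Median length and GC content were taken over the basic transcripts of each gene.

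From the deposited TPM, log2 ratios with a pseudocount of 1 TPM were computed within each table, and the pseudocount understates changes of low genes. Genes under 1 TPM in both libraries of a line were left out. The call was a log2 ratio of at least 0.32 in size. No test was made, since 1 library per condition leaves no spread, and TPM keeps no depth. The log2 ratios and the centring were run on simulated data for genes of at least 10 TPM. These data held a set GC trend and no length trend, so they cannot show how the centring handles length. Alternatives covered pseudocount, filter, scaling, centring and membership.

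The rule for named genes took, for complexes I, III, IV and V in each line, the 2 members furthest down and the 2 furthest up among those of at least 10 TPM. It added all SDH genes and CYCS, members called in both lines, the 10 most abundant members, the c subunit genes, the complex IV isoforms, the mitochondrial subunits and other list genes changed by 1.5 times or more, of which the ribosomal protein genes are given as counts only. ATP5F1A, ATP5F1E, ATP5PF, ATP5PO, COX6B1, NDUFB4, NDUFV3, UQCRFS1, UQCRHL, TIMMDC1, SLC25A3, SLC25A6, PPARGC1A and the pseudogenes fall outside it and were chosen after their values were seen. Calculations used pandas 2.3.3, numpy 2.4.6 and scipy 1.17.1 under Python 3.11.15, with matplotlib 3.10.9 for plots. Some genes that the rule names are not reported here.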

Additional observations from a re-analysis of the deposited data

Results flagged for a closer look

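ATP5MF-PTCD1 was called in opposite directions in the cell lines, with log2 ratios of 0.48 in 22RV1, from 17.6 to 25.01 TPM, and −0.92 in PC3, from 6.61 to 3.02 TPM. Each line has 1 pair of libraries, and the difference between the lines was not tested. The gene is a read-through of ATP5MF, which was at 3609.6 and 3529.7 TPM in 22RV1 and at 1555 and 1393 TPM in PC3.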

How the results depend on the processing

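No paired analysis was possible because a single library stands for every condition, and no replicate could be left out. Of 174 alternative values for 24 results on the groups of genes and on DDX52, 140 kept their direction and moved by under 0.1 (log2), or for counts by no more than 1.5 times, 29 moved further and 5 reversed. For single named genes, 464 of 572 values stayed and 108 moved. The log2 ratio of DDX52 was −1.94 in 22RV1 and −2.10 in PC3 with a pseudocount of 0.1 TPM, and −0.67 and −1.01 with 5 TPM. Centred on all genes, 2 members were called lower and 8 higher in 22RV1, and complex IV reversed to 0.050. Centred on length and GC content, 22RV1 gave a member median reversed to 0.033, 0 members called lower, −0.032 for complex II, complex IV reversed to 0.038, −0.030 for complex V, CYCS reversed to 0.043, 0.57 for the mitochondrial subunits and −1.31 for DDX52. The same centring in PC3 gave a member median of −0.065, 15 members called lower, −0.029 for complex I, −0.22 for complex III, −0.062 for complex IV, −0.19 for complex V, −0.37 for CYCS and 0.35 for the mitochondrial subunits. TPM over nuclear protein-coding genes, which could not be applied to mitochondrial genes, gave in PC3 a member median of −0.11, 16 members called lower, −0.065 for complex I, complex II reversed to 0.049, −0.21 for complex III, −0.079 for complex IV, −0.25 for complex V, −0.47 for CYCS and −0.075 for the log2 ratio of summed TPM. Without read-through genes and isoforms, 1 member was called higher in each line. The causes of these shifts were not tested, and the share of all genes past the call was not computed for these alternatives. TPM keeps no depth, so counting error is unknown.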

Other observations

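Processed pseudogenes carry many of the subunit symbols. Of 173 pseudogenes that match the same symbol patterns, 157 were listed at 0 in every library and 7 reached 1 TPM in at least 1 library. Their summed TPM was between 15.9 and 28.0 per library, against 28112 to 41121 for the subunit genes. ATP5F1EP2, a copy of the F1 epsilon subunit gene, was listed at 17.4 TPM in 22RV1 shCON and at 0 in the other 3 libraries, beside 41.3 and 35.5 TPM of ATP5F1E in 22RV1 and 72.9 and 51.4 TPM in PC3. Summed over the gene and its copy, the values were 58.6 and 35.5 TPM in 22RV1. UQCRFS1P1 was at 8.2 and 11.2 TPM in 22RV1 and at 7.67 and 7.54 TPM in PC3, beside 45.4, 39.1, 46.6 and 37.3 TPM of UQCRFS1, the Rieske iron-sulphur protein. UQCRBP2 was at 8.72 and 9.34 TPM in PC3 and below 1 TPM in 22RV1.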
